A study of Caenorhabditis elegans with 6 samples.

Results

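The genes described here are 40 Caenorhabditis elegans genes of S phase, of the cyclins and their kinases, and of the DNA checkpoint. They were taken as a list of names: the origin licensing factors orc-1 to orc-5, cdc-6, cdt-1 and gmn-1, the helicase activators evl-18, psf-1, psf-2 and psf-3, the priming genes div-1, pri-1 and pri-2, the fork genes pcn-1, rfc-1 to rfc-4, rpa-1, rpa-2, lig-1 and top-2, the ribonucleotide reductase genes rnr-1 and rnr-2, the cell cycle regulators cyd-1, cdk-4, cye-1, cdk-2, cya-1, cki-1 and cki-2, the checkpoint genes atl-1, atm-1, chk-1, cdc-25.1 and cdc-25.2, and the mismatch repair genes msh-2 and msh-6. All 40 were among the 14700 genes of the deposited table. The MCM helicase and most mitotic genes were not members.

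The RNA came from descendants of the QR neuroblast, in pools of 2000 cells from first-stage larvae fed for 7 hours after larval arrest. Both groups carried the mab-5 deletion allele gk670 and the integrated transgenes huIs166 and ayIs9, so the control cells were not wild type. The second group also carried huIs179 and is called ΔN-BAR-1Q in the series, for an N-terminally truncated BAR-1 (a β-catenin) made in Q lineage cells. There were 3 libraries per group. β-Catenins that lack their N-terminus escape degradation, and the series uses this one to look for genes that canonical Wnt signalling controls; here the question is how the replication and cell cycle genes compare between the groups.

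DNA is copied once per cell cycle because origins are first licensed and then fired. The origin recognition complex, CDC-6 and CDT-1 load the MCM helicase in G1; CDC-45 and the GINS complex then activate it, primase and polymerase α start each strand, and the sliding clamp PCNA, placed by the RFC clamp loader, keeps the polymerases on their template. Cyclin D with CDK-4 and cyclin E with CDK-2 drive entry into S phase, and the CIP/KIP-type inhibitors CKI-1 and CKI-2 hold it back. Stalled or damaged forks are sensed by the ATR and ATM kinases (ATL-1 and ATM-1 in the worm), and CHK-1 passes the ATR signal on. The QR neuroblast passes through a short series of divisions whose last daughters leave the cell cycle as neurons or die, so a pool of its descendants can hold both cycling and postmitotic cells.

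No member passed the test between the groups. Most members were nevertheless lower in the ΔN-BAR-1 libraries. The kinase gene chk-1 came nearest, with 217 ± 77.3 CPM (counts scaled to library size) in control against 71.9 ± 13.96 CPM with ΔN-BAR-1 (SD, n = 3 each), with an adjusted p of 0.0718 by edgeR's quasi-likelihood test with Benjamini-Hochberg adjustment over all 3447 tested genes. The summed level of the 40 genes was 11192, 9719 and 10573 CPM in control replicates 1 to 3 and 6316, 7752 and 7854 CPM in ΔN-BAR-1 replicates 1 to 3. The groups did not overlap in this sum, whose mean was 10495 ± 739.9 CPM in control and 7307 ± 859.9 CPM with ΔN-BAR-1 (SD, n = 3 each), a change of −30.4%. The members took 0.929% to 1.02% of all counts in the control libraries and 0.611% to 0.685% in the ΔN-BAR-1 libraries. In a pool of cells, fewer replicating cells and less of these transcripts in each cell cannot be told apart.

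The filter on low counts left 25 of the 40 members for the test. Of these, 23 had a log2 fold change (ΔN-BAR-1 over control) below 0 and 2 above 0, with a median of −0.62, while 1723 of all 3447 tested genes were below 0 and their median was 0.0003. At the threshold of 0.05 on the adjusted p, edgeR called 0 of the 25 lower and 0 higher, against 0.087% and 1.57% of all tested genes (1.65% in either direction). DESeq2 and limma-voom also called 0. At an unadjusted p below 0.05, edgeR gave 8 members lower and 0 higher, or 32.0% lower, against 3.42% of all tested genes that were lower and 8.21% that were higher. DESeq2 gave 6 members lower and 0 higher at an unadjusted p below 0.05, against 2.64% and 6.47% of all tested genes, and limma-voom gave 9 lower and 0 higher, against 4.03% and 7.08%. In 10 of the 25 all 3 ΔN-BAR-1 libraries lay below all 3 control libraries, as they did in 7.08% of all tested genes, and in 0 members did they lie above, against 10.4%. The filter did not treat the groups alike: cdc-6 and rfc-1 passed it through the control libraries alone, and 6 of the 25 passed it in more control than ΔN-BAR-1 libraries. The filtered counts and median are therefore descriptions and not support for a shift. With no filter, 34 of the 40 members were below 0, with a median of −0.49 against 0.01 for all genes, and 0 were called.

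**Figure D1:**
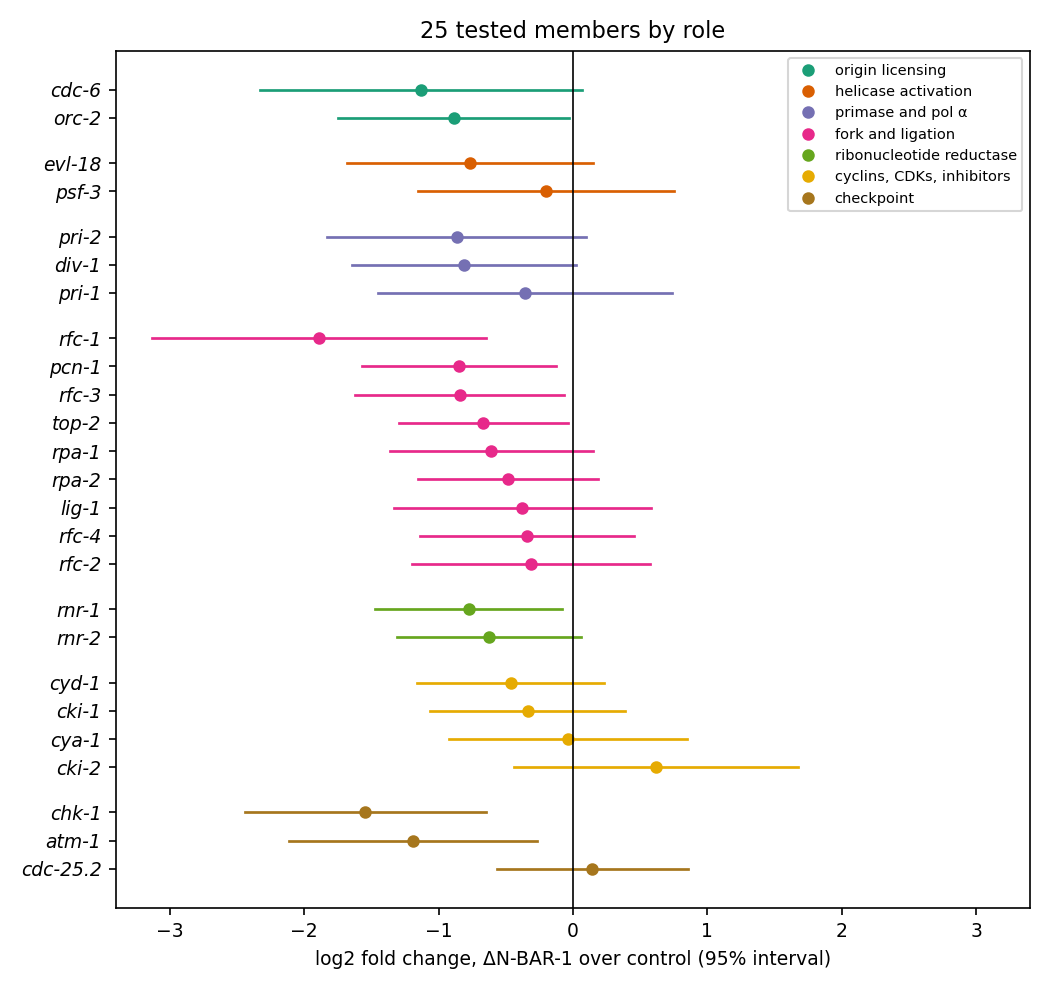
Log2 fold change (ΔN-BAR-1 over control, horizontal axis) of the 25 tested members, with the 95% interval from the edgeR fit as a line, grouped and coloured by role. The members of the licensing, helicase activation, priming, fork and ribonucleotide reductase groups all lie left of 0, chk-1 and atm-1 lie at −1.54 and −1.19, and the cyclin and inhibitor genes lie between −0.46 and 0.62. The genes cdc-6 and rfc-1 passed the filter through the control libraries alone.

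Origin licensing genes were low in both groups. ORC-2 is a subunit of the origin recognition complex. Its gene stood at 206, 136 and 181 CPM in the control libraries and 109, 96.6 and 73.4 CPM in the ΔN-BAR-1 libraries. Every ΔN-BAR-1 library was below every control library (log2 fold change −0.89 ± 0.41 SE, edgeR adjusted p = 0.402). The gene cdc-6, whose product helps load the helicase, stood at 92.3, 57.6 and 65.9 CPM in control and 21.7, 35.6 and 39.2 CPM in ΔN-BAR-1 libraries. These groups did not overlap either (−1.13 ± 0.57, edgeR adjusted p = 0.464), but they rest on 50 counts in all. This gene also passed the filter through the control libraries alone. The loading factor gene cdt-1 had 7, 24 and 2 counts in control and 11, 9 and 8 counts in ΔN-BAR-1 libraries, too few for the test, with overlapping groups. The origin recognition genes orc-1 and orc-3 were also untested, at 49.0 and 42.3 CPM in control and 45.1 and 41.5 CPM in ΔN-BAR-1 libraries. Those of orc-4 and orc-5 were 55.1 and 33.4 CPM in control and 18.7 and 15.1 CPM in ΔN-BAR-1 libraries, with overlap between the groups. Geminin, the inhibitor of CDT-1, is encoded by gmn-1, which had 2 counts in all libraries together. Summed over the 8 licensing genes, control libraries stood at 445 to 554 CPM and ΔN-BAR-1 libraries at 255 to 337 CPM.

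Among the helicase activators, evl-18 encodes the worm CDC-45. It stood at 107, 111 and 132 CPM in control and 76.1, 71.2 and 53.9 CPM in ΔN-BAR-1 libraries, again without overlap (log2 fold change −0.77 ± 0.44, edgeR adjusted p = 0.559). The GINS subunit gene psf-3 overlapped between the groups, at 86.3 ± 32.0 and 79.8 ± 17.4 CPM (SD, n = 3 each; log2 fold change −0.20 ± 0.46). The other GINS genes, psf-1 and psf-2, were not tested, with 45 and 33 counts in all.

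The primase and polymerase α genes overlapped between the groups in every case. DIV-1, the B subunit of polymerase α, had its gene at 220.2, 255 and 98.8 CPM in control and 119.6, 107 and 118 CPM in ΔN-BAR-1 libraries. Control replicate 3 was the lowest library of all, and the other control libraries were the highest (log2 fold change −0.81 ± 0.40, edgeR adjusted p = 0.447). The large primase subunit gene pri-2 stood at 99.4, 218 and 132 CPM in control and 114, 96.6 and 44.1 CPM in ΔN-BAR-1 libraries. Its log2 fold change of −0.87 ± 0.46 (edgeR adjusted p = 0.515) became −0.44 without control replicate 2. The small primase subunit gene pri-1 stood at 82.3 ± 35.1 and 69.9 ± 44.3 CPM (SD, n = 3 each; −0.36 ± 0.52).

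The fork genes were all 9 tested and all below 0, with a median of −0.61. The largest difference was in rfc-1, the large subunit of the clamp loader. This gene passed the filter through the control libraries alone, so its difference and the count of 9 below 0 are descriptions. It held 10, 22 and 4 counts in control replicates 1 to 3 and 3, 5 and 4 counts in ΔN-BAR-1 replicates 1 to 3. Scaled to library size this was 75.8 ± 12.98 CPM in control and 20.4 ± 4.61 CPM with ΔN-BAR-1 (SD, n = 3 each), a log2 fold change of −1.89 ± 0.60 (edgeR adjusted p = 0.124). Its 95% interval ran from −3.14 to −0.65. The smaller clamp loader subunits differed less. For rfc-3 the libraries stood at 298, 234 and 214 CPM in control and 196, 122 and 103 CPM with ΔN-BAR-1, without overlap (−0.84 ± 0.37, edgeR adjusted p = 0.372). For rfc-2 and rfc-4 the groups overlapped, at −0.31 ± 0.43 and −0.34 ± 0.38. These 4 genes encode parts of one complex, but no test of a difference among them was made.

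The gene of the sliding clamp itself, pcn-1, was among the more abundant members. It stood at 710.2, 901 and 758 CPM in control and 228, 605 and 485 CPM in ΔN-BAR-1 libraries. All ΔN-BAR-1 libraries were below the control libraries, and replicate 1 was far below its own group. The log2 fold change was −0.85 ± 0.35 (edgeR adjusted p = 0.298), and −0.54 without ΔN-BAR-1 replicate 1. The topoisomerase II gene top-2, whose product untangles replicated DNA, had the tightest control group of the abundant members, at 824, 859.6 and 774 CPM. Its ΔN-BAR-1 libraries stood at 462, 630.3 and 460.3 CPM, all lower (−0.67 ± 0.30, edgeR adjusted p = 0.384). Of the genes of the single-strand binding protein RPA, rpa-2 was at 387 ± 29.97 CPM in control and 275 ± 61.8 CPM with ΔN-BAR-1 (SD, n = 3 each) without overlap (−0.48 ± 0.32, edgeR adjusted p = 0.648). For rpa-1 the groups overlapped (−0.61 ± 0.36), as they did for the DNA ligase gene lig-1 (−0.38 ± 0.46). Over the 9 fork genes the summed level was 2997, 3155 and 2882 CPM in control and 1701, 2206 and 1807 CPM in ΔN-BAR-1 libraries.

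Ribonucleotide reductase makes the deoxynucleotides for replication. The gene of its large subunit, rnr-1, stood at 1506, 929.5 and 692 CPM in control and 559.9, 732 and 548 CPM in ΔN-BAR-1 libraries. Control replicate 1 was well above the other control libraries, and control replicate 3 lay inside the ΔN-BAR-1 range. The log2 fold change was −0.78 ± 0.33 (edgeR adjusted p = 0.344), and −0.44 without control replicate 1. The small subunit gene rnr-2 stood at 1136, 584 and 955 CPM in control and 473, 579 and 671 CPM in ΔN-BAR-1 libraries. Here control replicate 2 was level with ΔN-BAR-1 replicate 2 (−0.62 ± 0.33, edgeR adjusted p = 0.498).

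**Figure D2:**
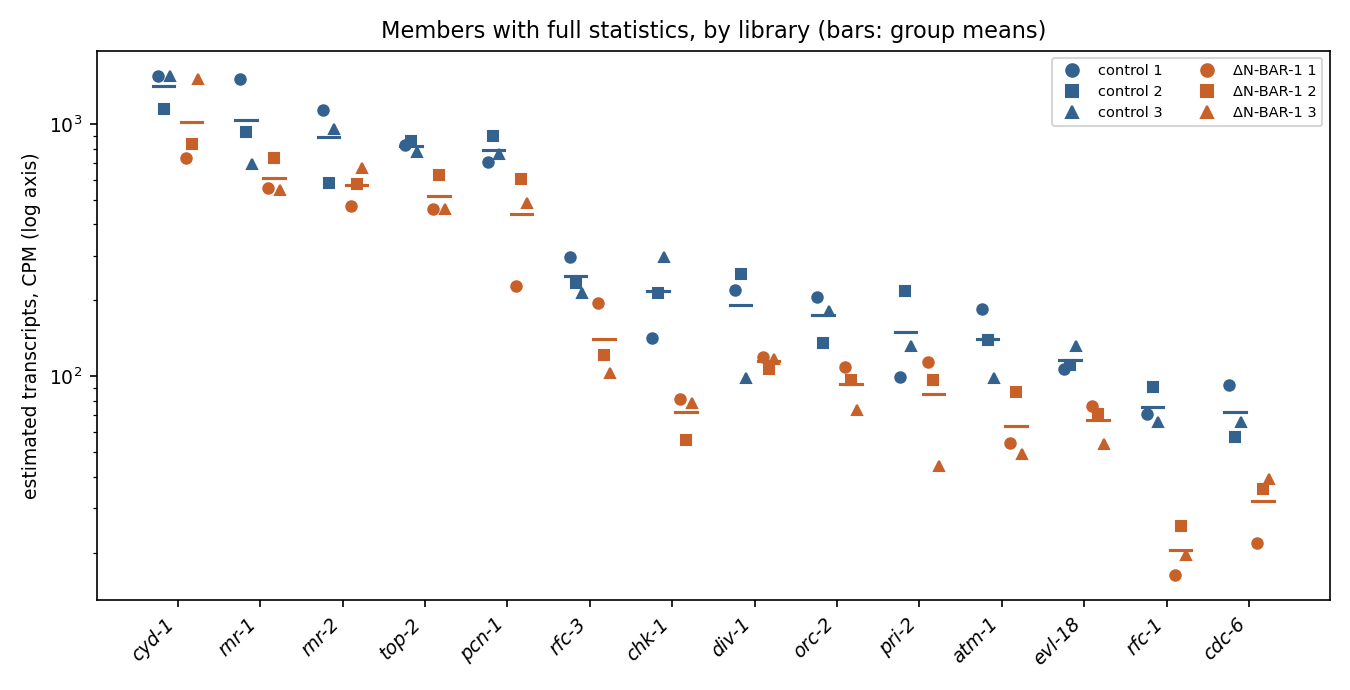
Estimated transcripts (CPM, log axis) in each of the 6 libraries for the 14 members given with full statistics, ordered by their control mean; circles, squares and triangles are replicates 1, 2 and 3, and short bars are group means. The ΔN-BAR-1 libraries lie wholly below the control libraries for chk-1, rfc-1, atm-1, cdc-6, orc-2, pcn-1, rfc-3, top-2 and evl-18, and overlap them for div-1, pri-2, rnr-1, rnr-2 and cyd-1. They also lie wholly below in 7.08% of all tested genes. The 14 were chosen by smallest p in the same data, and cdc-6 and rfc-1 passed the filter through the control libraries alone.

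The tested regulators of S phase entry lay between −0.46 and 0.62 in log2 fold change, and their 95% intervals all included 0. The intervals of many other tested members, among them psf-3, pri-1, rfc-2, rfc-4 and lig-1, included 0 as well. No difference between the regulators and the other members was tested. The inhibitor gene cki-1 was the most abundant member. It stood at 1534, 1213 and 2289 CPM in control and 799, 1479 and 1675 CPM in ΔN-BAR-1 libraries. The groups overlapped broadly (log2 fold change −0.34 ± 0.35, edgeR adjusted p = 0.818), and the 95% interval allowed up to 2.09-fold lower or 1.31-fold higher levels. Leaving out single libraries gave −0.57 to −0.06, the latter without control replicate 3. The second inhibitor gene, cki-2, lies next to cki-1 in the genome and was far less abundant, at 86.8 ± 55.3 CPM in control and 115 ± 44.6 CPM with ΔN-BAR-1 (SD, n = 3 each). It had the highest log2 fold change of the tested members, 0.62 ± 0.51 (edgeR adjusted p = 0.740), with overlap between the groups and an interval from −0.44 to 1.67. Leaving out single libraries gave 0.14, without control replicate 2, to 1.07, without control replicate 3. The cyclin D gene cyd-1 stood at 1555, 1148 and 1548 CPM in control and 734, 834 and 1503 CPM in ΔN-BAR-1 libraries. ΔN-BAR-1 replicate 3 lay within the control range while the other ΔN-BAR-1 libraries lay below it (−0.46 ± 0.33, edgeR adjusted p = 0.695), and leaving it out gave −0.88, while leaving out ΔN-BAR-1 replicate 1 gave −0.26.

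The cyclin A gene cya-1 was level on average and uneven among replicates. Its control libraries stood at 220.2, 234 and 198 CPM, and its ΔN-BAR-1 libraries at 391, 132 and 122 CPM. ΔN-BAR-1 replicate 1 was above all other libraries and replicates 2 and 3 were below them. The log2 fold change was −0.04 ± 0.42 with all libraries and −0.78 without ΔN-BAR-1 replicate 1. Cyclin E and both cyclin-dependent kinase genes were hardly counted. The cyclin E gene cye-1 had 43 counts in all, with means of 33.8 CPM in control and 42.9 CPM in ΔN-BAR-1 libraries, cdk-4 had 41 counts in all, and cdk-2 had 1 count in control replicate 2 and 1 in ΔN-BAR-1 replicate 2. Such counts do not show that a gene is off: in control replicate 3, a single count is 16.5 CPM and 3 counts are 49.4 CPM. Over the 7 regulators the sums overlapped, at 2727 to 4266 CPM in control and 2104 to 3525 CPM in ΔN-BAR-1 libraries. These 7 genes made up 33.2% of the members' summed control level. The other 33 members summed to 7014 ± 717 CPM in control and 4552 ± 490.4 CPM with ΔN-BAR-1 (SD, n = 3 each), without overlap. The 7 left out held the highest tested member, cki-2, and leaving them out favours a lower sum, so no decrease is read from it.

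The checkpoint genes held the member nearest to a call. The effector kinase gene chk-1 had 20, 52 and 18 counts in control and 15, 11 and 16 counts in ΔN-BAR-1 libraries, or 142, 214 and 296 CPM against 81.5, 55.9 and 78.3 CPM. The ΔN-BAR-1 libraries lay close together and below all control libraries. The log2 fold change was −1.54 ± 0.43, with a 95% interval from −2.44 to −0.65. It lay between −1.32 and −1.81 over the omissions of single libraries, and only without ΔN-BAR-1 replicate 1 did it pass, at an edgeR adjusted p of 0.0468; with any other single library left out the adjusted p was 0.0693 to 0.262.

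The kinase gene atm-1 stood at 185, 139.8 and 98.8 CPM in control and 54.4, 86.4 and 49.0 CPM in ΔN-BAR-1 libraries. The groups did not overlap, although control replicate 3 and ΔN-BAR-1 replicate 2 were near each other (log2 fold change −1.19 ± 0.44, edgeR adjusted p = 0.227). The ATR gene atl-1 had 3, 5 and 0 counts in control and 11, 3 and 5 counts in ΔN-BAR-1 libraries and was not tested, so the kinase known to act directly above CHK-1 could not be compared. The CDC25 phosphatases remove the inhibitory phosphates from cyclin-dependent kinases. The phosphatase gene cdc-25.2 stood at 447, 522 and 247 CPM in control and 337, 605 and 446 CPM in ΔN-BAR-1 libraries, overlapping throughout (0.15 ± 0.34, edgeR adjusted p = 0.936). Its 95% interval allowed up to 1.48-fold lower or 1.81-fold higher levels. Its paralogue gene cdc-25.1 had 20 counts in all. Summed over the 5 checkpoint genes, the groups overlapped, at 659 to 913 CPM in control and 565 to 778 CPM in ΔN-BAR-1 libraries, and cdc-25.2 was the largest part of the sum on average.

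The mismatch repair genes msh-2 and msh-6, whose products form the dimer that recognises mispaired bases, had 16 and 23 counts in all. Neither was tested. Their means were 24.6 and 38.3 CPM in control and 11.97 and 16.8 CPM in ΔN-BAR-1 libraries, with overlap between the groups in both. Of the 15 members below the filter, with 2 to 61 counts each, 11 had the lower mean in ΔN-BAR-1 libraries and 4 (cye-1, cdk-2, atl-1 and cdc-25.1) the higher one, and the groups overlapped in all 15.

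**Figure D3:**
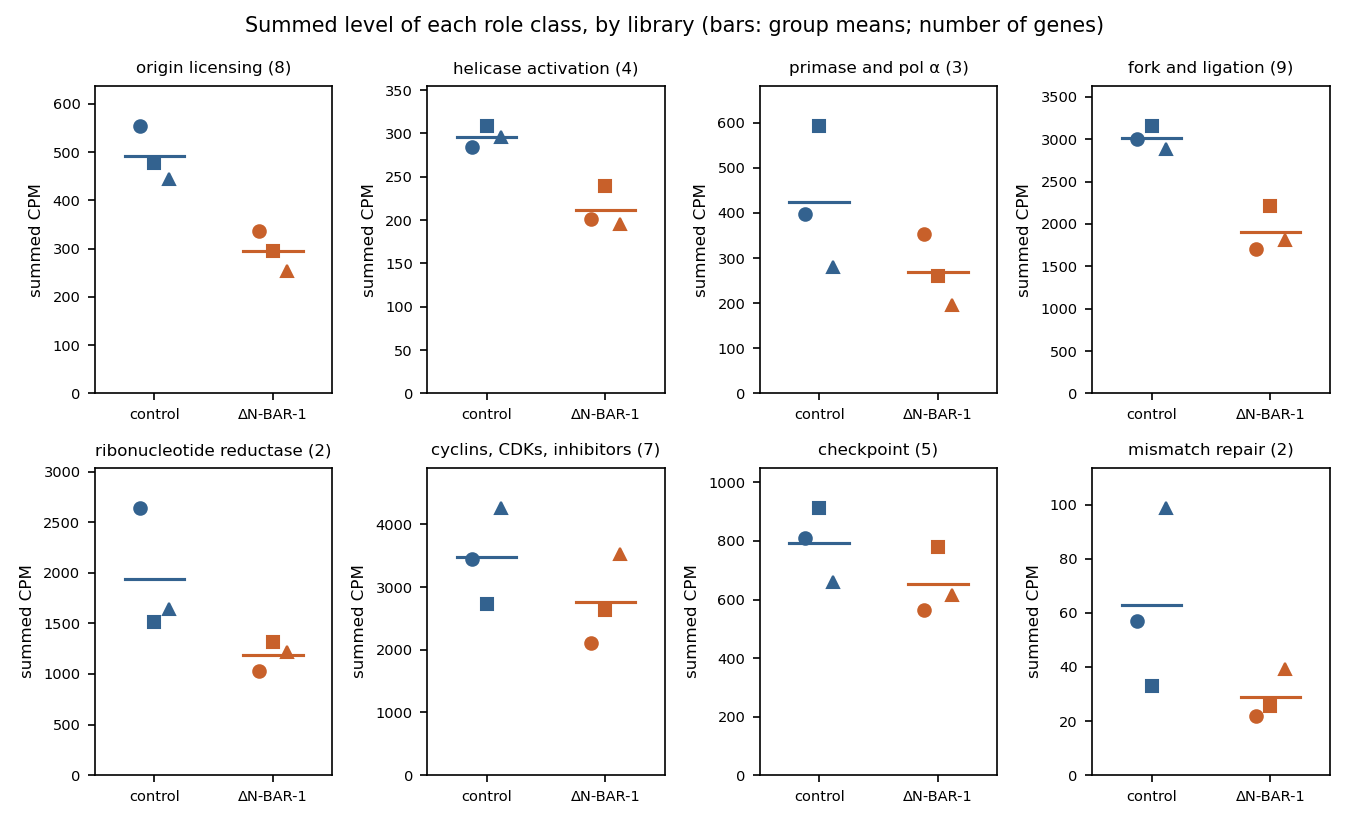
Summed CPM of each role class (number of genes in brackets) in control and ΔN-BAR-1 libraries; circles, squares and triangles are replicates 1, 2 and 3, bars are group means, and each vertical axis starts at 0. The groups lie apart for licensing, helicase activation, fork and ribonucleotide reductase genes and overlap for priming genes, cyclins with their kinases and inhibitors, checkpoint and mismatch repair genes.

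Levels differed widely between members. Since 3′ ends were counted, a transcript gives about 1 tag whatever its length, and CPM were compared between genes without a length correction, though capture may still differ. The 6 most abundant members in control were cki-1, cyd-1, rnr-1, rnr-2, top-2 and pcn-1, with means of 1679 down to 789 CPM, and they held 63.3% of the members' summed level. The control ranges of neighbours in this order overlapped, so the order is not firm. The next, cdc-25.2 and rpa-2, stood at 406 ± 142 and 387 ± 29.97 CPM (SD, n = 3 each). At the other end, cdk-2 and gmn-1 had 2 counts each.

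The members that passed the filter, cdc-6 and rfc-1 included, were also described library by library. Both genes passed through the control libraries alone, so the medians of the 25 members are descriptions and not support for a shift. Relative to each gene's mean over the 6 libraries, the median of these 25 was 0.34, 0.32 and 0.27 on the log2 CPM scale in control replicates 1 to 3, and −0.36, −0.27 and −0.35 in ΔN-BAR-1 replicates 1 to 3. The same median over all tested genes lay between −0.02 and 0.06 in the 6 libraries. Single genes did not follow it in step: ΔN-BAR-1 replicate 1 was the lowest library for pcn-1, rnr-2, cyd-1 and cki-1 and the highest for cya-1. The log2 fold changes of all 14 members given with full statistics stayed below 0 whichever library was left out. These 14 were chosen by smallest p in the same data and all lay below 0 there, so this is not support for a shift. Among the other tested members, cya-1 ran from −0.78 to 0.20, cdc-25.2 from −0.13 to 0.35 and pri-1 from −0.99 to 0.02. The rest kept their sign.

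**Figure D4:**
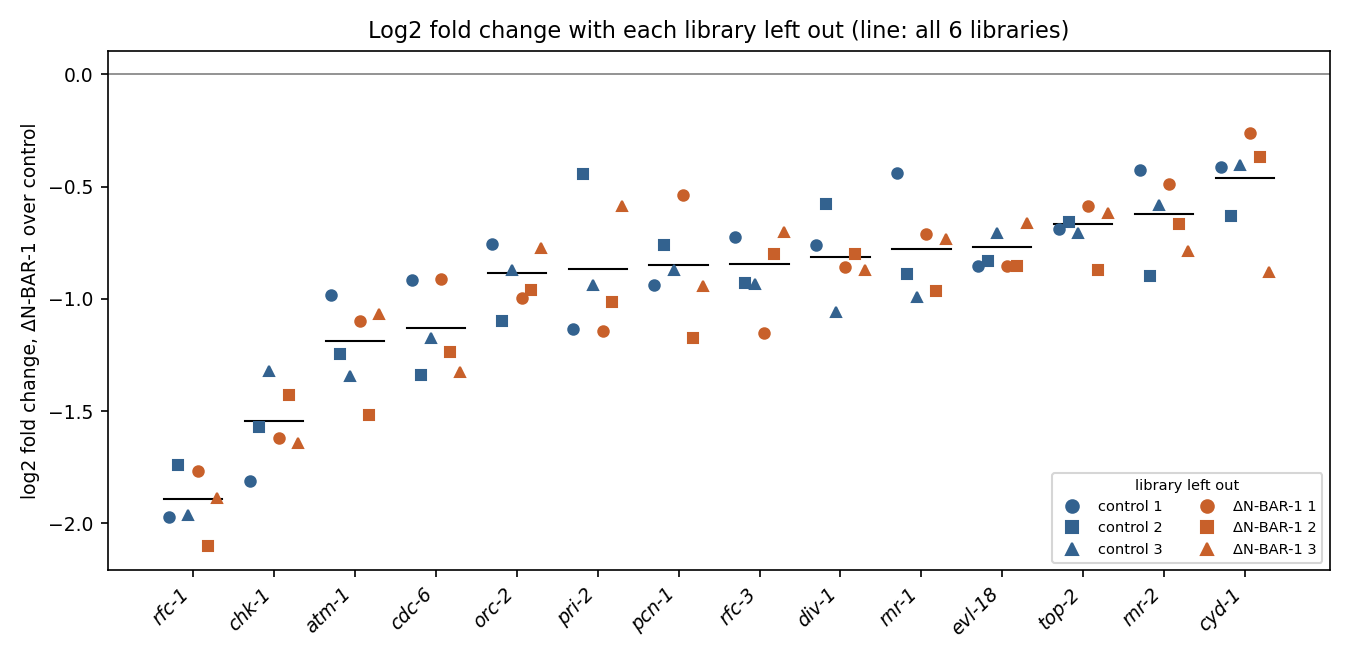
Log2 fold change (ΔN-BAR-1 over control, vertical axis) of 14 members with 1 library left out at a time; the black line is the value with all 6 libraries, colour and shape show the library left out, and the grey line is 0. All values lie below 0, but the 14 were chosen by smallest p in the same data, where all were below 0. The value of pri-2 moves to −0.44 without control replicate 2 and that of rnr-1 to −0.44 without control replicate 1.

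Other genes of the same pathway were read from a list of 63 names, of which 51 were in the table and 30 were tested. The tested genes gave 27 below 0 and 3 above, with a median of −0.75. By edgeR 1 was called lower and 0 higher, against 0.087% and 1.57% of all tested genes. At an unadjusted p below 0.05, edgeR gave 11 lower, against 3.42% of all tested genes, and 6 of these 11 were MCM genes. The call was the helicase gene mcm-7, at 909, 806 and 1285 CPM in control and 294, 402 and 328 CPM in ΔN-BAR-1 libraries (−1.53 ± 0.32, edgeR adjusted p = 0.0136). The nuclease gene crn-1, the worm FEN-1 that trims Okazaki fragments ahead of LIG-1, stood at −1.58 ± 0.46 (edgeR adjusted p = 0.0869). The genes mcm-5, mcm-4 and mcm-3 stood at −1.08, −0.93 and −0.86, and the mitotic kinase gene cdk-1 at −0.91 ± 0.32 (edgeR adjusted p = 0.174). All 6 tested MCM genes were below 0. Of the 12 regulators of the G1/S decision in the table, 9 were tested, 7 of them below 0, with a median of −0.18, and 0 were called. The E2F gene efl-1 was lower without overlap between the groups, as were 7.08% of all tested genes (−0.99 ± 0.45, edgeR adjusted p = 0.384). The Rb gene lin-35 overlapped (−0.62 ± 0.43). The 12 genes summed to 2345 ± 156 CPM in control and 2424 ± 200.5 CPM with ΔN-BAR-1 (SD, n = 3 each), but the ubiquitin ligase subunit gene skr-1 was the largest part of this sum, at 817 ± 56.9 and 1105 ± 117 CPM. It was also the only 1 of the 12 with every ΔN-BAR-1 library above every control library (0.43 ± 0.30, edgeR adjusted p = 0.671). Without skr-1 the other 11 summed to 1527 ± 103 CPM in control and 1319 ± 198 CPM with ΔN-BAR-1 (SD, n = 3 each), with overlap between the groups. Leaving out the gene that goes the other way favours a lower sum, so no decrease is read from it. Genes of damage sensing and recombination, 11 in the table, were too low for the test in every case.

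The labelled cell type and other cells were read from marker lists. All 12 Q lineage markers had counts, with sums of 6276 to 8268 CPM in control and 6139.9 to 8213 CPM in ΔN-BAR-1 libraries. Among them, mab-5 is the gene that carried the deletion allele gk670 in both groups, so no cell identity is read from its counts. Of these 12, all tested, 7 were below 0 and 5 above, and edgeR called 1 higher and 0 lower. The call was the Wnt receptor gene mig-1 (1.52 ± 0.38, edgeR adjusted p = 0.0415). Others also stood far from 0 without passing, with hlh-14 at 1.78, sem-4 at 1.11, lin-32 at −1.24 and ham-1 at −0.92. Touch neuron markers summed to 1485 to 1598 CPM in control and 3241 to 4473 CPM in ΔN-BAR-1 libraries, with 5 of 6 tested genes called higher. Neuronal markers summed to 2898 to 3595 CPM in control and 5724 to 9436 CPM in ΔN-BAR-1 libraries, with 4 of 19 tested called higher. Of all tested genes, 1.57% were called higher. Among the calls, mec-1, mec-18, unc-104 and snn-1 passed the filter through the ΔN-BAR-1 libraries alone, so these counts of calls are descriptions. The touch neuron and neuronal sums moved with the group in the direction opposite to the members, and their part in the members' levels was not tested. Muscle markers overlapped, at 8403 to 16716 CPM in control and 6501 to 20971 CPM in ΔN-BAR-1 libraries, with hlh-1 at 0 counts throughout. Most of this sum came from unc-54 (means of 4930 and 8357 CPM) and act-4 (4269 and 4092 CPM), while myo-3 had 2 counts in all. Of the 10 muscle markers tested, 7 were below 0 and 3 above, with a median of −0.43, so the sum does not speak for the list. Hypodermis and seam markers overlapped as well, at 511 to 642 and 380.5 to 719.8 CPM, with dpy-7 and rol-6 at 0. Germline cells are another source of replication transcripts in a larva. The 15 germline markers summed to 37.02 to 65.9 CPM in control and 10.9 to 35.6 CPM in ΔN-BAR-1 libraries, lower and without overlap, as the members' sum was. These sums rest on 4 to 9 counts in control and 2 to 7 in ΔN-BAR-1 libraries, with glh-2, nos-2, deps-1, him-3, rec-8 and cpb-3 at 0 throughout, and their part in the members' levels was not tested. Intestine markers summed to 391 to 445 CPM in control and 254 to 326 CPM in ΔN-BAR-1 libraries, with elt-2 and ges-1 at 0 throughout. Most of this sum was erm-1, the only intestine marker tested, at 373 ± 77.4 and 252 ± 24.3 CPM (SD, n = 3 each). The lower sum is thus mainly that of 1 gene and not a measure of intestine cells. The part of these markers in the members' levels was not tested. The 4 mesoblast lineage markers had 1 to 10 counts in control and 2 to 20 in ΔN-BAR-1 libraries, with mls-2 at 0.

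**Figure D5:**
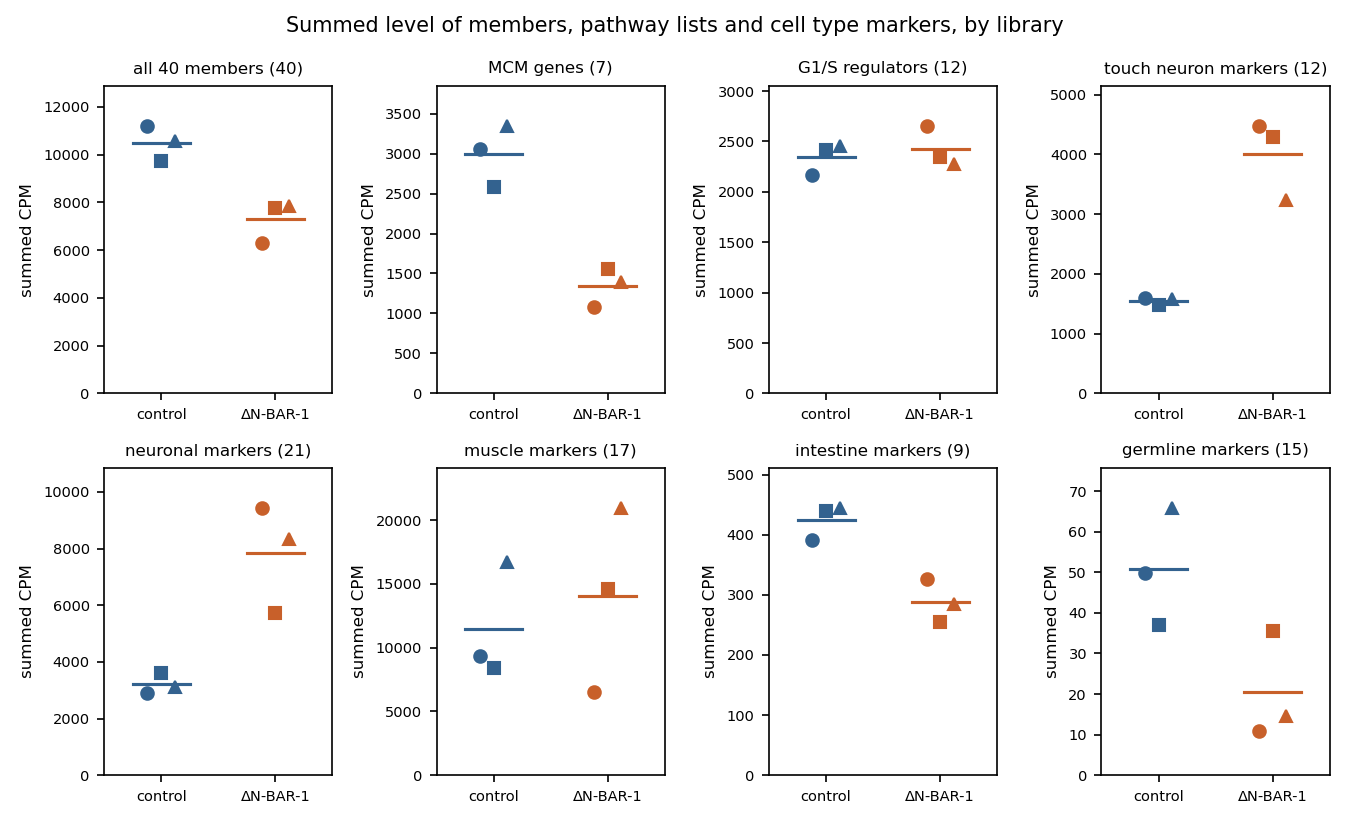
Summed CPM of the 40 members, of 2 other pathway lists and of 5 lists of cell type markers in each library (number of genes in brackets); circles, squares and triangles are replicates 1, 2 and 3, bars are group means, and each vertical axis starts at 0 and has its own scale. The members and the MCM genes lie lower with ΔN-BAR-1, touch neuron and neuronal markers lie higher, and G1/S regulators and muscle markers overlap. Intestine markers, mostly erm-1, and germline markers (at or below 65.9 CPM) lie lower with ΔN-BAR-1.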

How the data were processed

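The values deposited by the authors were estimated counts per gene in 6 libraries, with no normalisation between libraries. Per the labels' protocols, RNA was reverse transcribed and amplified by CEL-seq and sequenced from CEL-seq2 libraries, which count 3′ ends. For the aligner, annotation, build and use of strand, nothing is given in the sources used here. In the Ensembl annotation of WBcel235, 11 members overlap a gene on the other strand (gmn-1, evl-18, psf-1, psf-2, div-1, pri-2, rfc-3, rpa-2, rnr-2, cya-1 and cdc-25.1); if counting ignored strand, their reads could not be told apart. No sequences or coordinates are given.

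Estimated counts were rounded. Library totals were 68431 (control replicate 3) to 254362. All genes were fitted with edgeR 4.0.16 (R 4.3.3): filterByExpr by group (min.count 10), TMM, robust quasi-likelihood F test, two-sided, group as the only term, Benjamini-Hochberg adjustment over all tested genes, threshold 0.05. CPM use the TMM-scaled library sizes of the fit. Standard errors came from the F statistics, and 95% intervals from the moderated degrees of freedom. The steps were tested on simulated counts. The labels do not say whether the libraries stem from separate cultures, and p-values then cover only the spread among these libraries, which may be technical; libraries of 1 group differed beyond counting noise. Full statistics are given for the 12 members with the smallest p and the member with the smallest p of each role class (14 in all); for other tested members the fold change, SE and in places the adjusted p or interval are given outside this rule, chosen after their values were seen. Of the other pathway genes, the 6 with the smallest p are named. The values of efl-1, lin-35 and skr-1 are given outside this rule, while some genes with smaller p are not given. The members and lists were chosen with earlier results of these data known. Alternatives included DESeq2 1.42.0 and limma 3.58.1.

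Replicate numbers are shared between groups, but same-numbered libraries did not deviate together.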

Additional observations from a re-analysis of the deposited data

How the results depend on the processing

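Over 18 alternatives, 234 of 236 values of the 14 members with full statistics kept their side of the threshold and 0 changed sign. Not all 14 had a value in each: chk-1, rfc-1, atm-1, cdc-6, pri-2 and evl-18 had none under the stricter filter or after thinning. The genes orc-2 and div-1 had none under the stricter filter, and cdc-6 and rfc-1 none by DESeq2. The exceptions were chk-1 without ΔN-BAR-1 replicate 1 and at a threshold of 0.1. Of all tested genes, 14 of 3447 were called lower at that threshold and 13 of 3895 without ΔN-BAR-1 replicate 1. Members called numbered 1 at that threshold and 0 to 1 without single libraries. Their median log2 fold change was −0.49 without a filter, −0.50 with the stricter filter (min.count 30), −0.71 with upper quartile scaling (which moved the median of all genes to −0.09), −0.57 with distinct identifiers, and −0.47 to −0.70 without single libraries. Members below 0 numbered 10 of 12 with the stricter filter and 12 of 14 after thinning to the shallowest library, where fewer were tested, and 24 to 28 without single libraries. Genes called in the whole table numbered 9 by limma-voom, 35 under the stricter filter, 101 with no filter, 113 at the threshold of 0.1, 29 after thinning, 17 without replicate 3 of both groups and 16 to 121 without single libraries; beyond the numbers of genes and libraries, the cause was not tested. Thinning, distinct identifiers (the correction for identifiers that coincide by chance undone) and the omission of replicate 3 of both groups were chosen after seeing the data. A fit with a replicate block called 19 genes and 0 members, and the members' median was −0.65; same-numbered libraries correlated at −0.15, −0.08 and −0.03 in their deviations from the group means, and other pairs at −0.06 to 0.11, so the numbers were not taken as pairs. DESeq2 gave no adjusted p for 2 of the 25 members. Of members not given full statistics, cya-1, cdc-25.2, pri-1 and rfc-4 changed sign under at least 1 alternative. Depth limits what can be said of the 15 members below the filter: 3 counts equal 12.3 to 49.4 CPM.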
